A study of Mus musculus with 2 samples.

Results

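Open chromatin was examined around 7 microRNA (miRNA) genes of mouse blood, Mir144, Mir451a, Mir223, Mir150, Mir155, Mir221 and Mir222, in erythroblasts, the precursors of red cells that still have a nucleus. The members were taken by name from the GENCODE M21 annotation of mm10, which holds 2202 miRNA genes on chromosomes 1 to 19, X and Y, and all 7 were found there. They lie at 5 loci, since Mir144 and Mir451a are 99 bp apart and Mir221 and Mir222 are 504 bp apart. The assay was ATAC-seq, in which a transposase cuts accessible DNA and leaves sequencing adapters there. The study had 1 group with 2 biological replicates of 50000 primary cells each, from male C57BL/6J mice of 5 to 6 weeks with no further treatment or genetic change in the labels. Both replicates carry the same donor identifier, so whether they came from separate animals is not known here. With 1 group there was no contrast between conditions and no test.

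A miRNA is cut from a hairpin in a longer transcript, first in the nucleus by Drosha with Dgcr8 and then, for most miRNAs, in the cytoplasm by Dicer1, and it guides an Argonaute protein to messenger RNAs that pair with its seed, the bases near its 5′ end. Mir144 and Mir451a are processed from 1 shared transcript, and both are known as miRNAs of the red cell lineage whose transcription depends on the factor GATA1. miR-223 is known from granulocytes and monocytes, miR-150 from mature lymphocytes and miR-155 from activated lymphocytes and myeloid cells, while miR-221 and miR-222 are known to target the stem cell factor receptor Kit and to decline as red cells mature.

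The mature sequences are shown because the seed sets which messengers each member can pair with. They were taken from RefSeq (GRCm38.p6), 5′ to 3′, with the seed, bases 2 to 8, in capitals, for 1 or both arms of each hairpin. For Mir150 only miR-150-3p was available, so the seed of miR-150-5p is not among them.
miR-144-5p: gGAUAUCAucauauacuguaagu
miR-144-3p: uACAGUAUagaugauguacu
miR-451a: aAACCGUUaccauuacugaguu
miR-223-3p: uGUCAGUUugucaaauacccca
miR-155-5p: uUAAUGCUaauugugauaggggu
miR-150-3p: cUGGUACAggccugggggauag
miR-221-3p: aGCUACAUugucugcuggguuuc
miR-222-3p: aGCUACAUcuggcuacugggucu

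miR-221-3p and miR-222-3p had the same seed, GCUACAU, and the same first 8 bases, and miR-1928 was the only other of 1679 mature names with that seed. The seed of each of the other 6 sequences printed was found under no other name. Neighbours in the genome therefore did not always share a seed: the Mir221 and Mir222 products did, while the Mir144 and Mir451a products had different ones. The hairpin of Mir451a is shown because its product is unusual among miRNAs, with the mature sequence in capitals.
Mir451a: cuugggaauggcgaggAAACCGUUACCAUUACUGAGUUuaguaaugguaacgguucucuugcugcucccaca

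Mature miR-451a ran from base 17 to base 38 of this 72 nt hairpin, across its loop. As background, this hairpin is too short for Dicer1 and is cut by Ago2, the slicing Argonaute.

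The peak lists hold intervals with 1 or more summits, and each summit has an enrichment, the fold over background given by the authors' peak caller, and a significance, its −log10 p. Library depth is unknown, since reads are not counted in these lists. The main list of each replicate was thresholded by the authors on the irreproducible discovery rate (IDR), a measure of how repeatable a peak is, with 17777 intervals in replicate 1 and 18837 in replicate 2. All thresholded summits had an IDR below 0.05, and the median enrichment was 7.83 in replicate 1 and 7.74 in replicate 2. A longer, less strict list of each replicate (pseudoreplicated) had 31830 and 33552 intervals. A shared site was a place where thresholded intervals of both replicates overlapped by at least 1 bp, and a distal site was one whose summit lay over 1 kb from every start of a protein-coding transcript. Of the marker genes of erythroblasts, 10 of 11 had an open promoter in both replicates, and 40.6% of all protein-coding genes did. No promoter was open among 9 markers of granulocytes and monocytes, 5 of the B lineage, 5 of T and natural killer lymphocytes, or 3 of progenitors, and 1 of 4 megakaryocyte markers was, Itga2b. The erythroblast marker not open by this rule was Alas2, the erythroid enzyme of heme synthesis, which had a site in both less strict lists. So did the megakaryocyte marker Gp9, which makes 2 of 4 of that list by the less strict rule. The share of all protein-coding genes open by the less strict rule is not given here.

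Shared sites lay within 20 kb of 3 of the 7 members, Mir144, Mir451a and Mir150, and of all annotated miRNA genes 33.7% had one. By locus, 2 of 5 had shared sites, 9 in all, so the members as a list were near the background. The loci with sites differed in kind: at Mir144 and Mir451a, 5 of 6 sites were distal, and at Mir150, 0 of 3. Of all miRNA genes, 18.1% had any distal shared site. This is a share of genes and cannot be set against the shares of sites at these loci. The distal share of all shared sites is not given here. Mir223, Mir155, Mir221 and Mir222 had no interval within 20 kb in any list of either replicate, nor in the 4 lists made from both that were used. In both less strict lists the count was again 3 of 7, and 41.3% of all miRNA genes had such a site. In the list that the authors made from both replicates and called replicated it was 3 of 7, and 49.1% of all miRNA genes had an interval there.

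**Figure D1:**
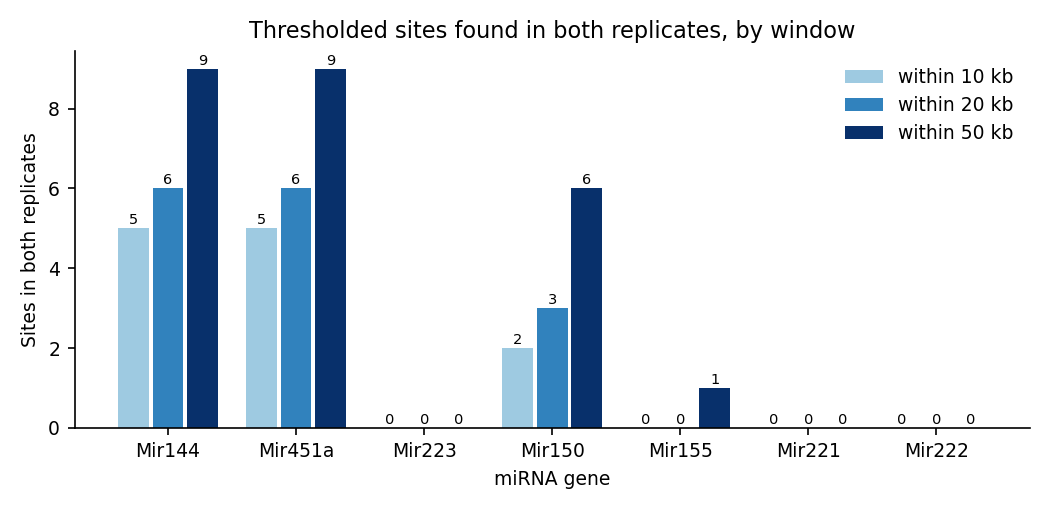
Shared sites (vertical axis, number found in the thresholded lists of both replicates) near each of the 7 miRNA genes (horizontal axis) within 10, 20 and 50 kb, as light, medium and dark bars. Mir144 and Mir451a had 5, 6 and 9, Mir150 had 2, 3 and 6, Mir155 had 1 within 50 kb, and Mir223, Mir221 and Mir222 had 0 in all 3 windows.

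Mir144 (ENSMUSG00000065401.1) is 66 bp long at chr11:78073005-78073070 on the plus strand, and Mir451a (ENSMUSG00000070065.1) is 72 bp long at chr11:78073170-78073241 on the same strand. Mir451b is annotated on the opposite strand at the same coordinates as Mir451a, so the assay, which has no strand, cannot tell them apart. Both members lie between genes, with Flot2, a membrane scaffold protein, upstream and Eral1, a mitochondrial ribosome assembly factor read toward the miRNA genes, downstream. Eral1 ends 134 bp past Mir451a, and its start, 7.38 kb past the 5′ end of Mir144, is the nearest protein-coding start to both members.

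The 6 shared sites spanned 19.8 kb from first to last summit, with 4 upstream and 2 downstream of the pair. Distances below are from the 5′ end of Mir144 to the summit of replicate 1. The summits of the replicates lay 0 to 17 bp apart, and the sites covered 4221 bp in replicate 1 and 4326 bp in replicate 2. The same 6 sites were the only intervals near the pair in the less strict lists. Replicate 1 had a further thresholded interval 7.35 kb upstream, of enrichment 1.83, beside a shared site, which replicate 2 did not have. It was not in the less strict list of replicate 1 either, so that list does not contain every thresholded interval.

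The sequences at the upstream sites between genes and within 10 kb are shown because they hold the motif matches described with each site. Each runs from the start of the window around 1 replicate's summit to the end of the other's, a window reaching 75 bp to each side of the summit, on the plus strand of GRCm38.p6 (mm10), which is the strand of Mir144. Capitals mark matches on either strand to GATA motifs (AGATAA or AGATAG, and likewise TGATAA or TGATAG), the letters that GATA factors recognise, and to CACC motifs (CCACCC or CCGCCC), which Klf and Sp factors recognise. The windows are at chr11:78066015-78066169, chr11:78069762-78069929 and chr11:78072524-78072680.
Mir144 upstream 6.9 kb: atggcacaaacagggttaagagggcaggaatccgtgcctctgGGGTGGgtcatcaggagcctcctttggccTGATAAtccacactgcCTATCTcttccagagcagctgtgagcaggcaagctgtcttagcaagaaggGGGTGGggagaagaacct
Mir144 upstream 3.2 kb: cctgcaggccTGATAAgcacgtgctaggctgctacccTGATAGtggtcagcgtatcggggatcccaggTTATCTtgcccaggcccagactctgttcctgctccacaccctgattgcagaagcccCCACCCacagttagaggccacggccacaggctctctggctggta
Mir144 upstream 0.4 kb: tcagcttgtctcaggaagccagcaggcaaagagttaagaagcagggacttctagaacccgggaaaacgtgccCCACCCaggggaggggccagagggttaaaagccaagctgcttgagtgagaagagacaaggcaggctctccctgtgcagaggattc

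The nearest site lay 0.4 kb upstream of Mir144 and had the lowest significance of the 6 in both replicates, a −log10 p of 27.6 and 29.8. Its enrichment was 3.36 in replicate 1 and 3.38 in replicate 2 (3.37 ± 0.0113, SD, n = 2), and the replicates differed little. It ended 192 bp before Mir144, at chr11:78072409-78072812. By enrichment it ranked at the 1.66 percentile of its list in replicate 1 and the 1.81 percentile in replicate 2. By significance it ranked higher, at the 29.5 and 33.9 percentiles. Its window held 1 CACC match, with its middle 6 bp before the summit in replicate 1 and at the summit in replicate 2, and no GATA match. In the replicated list, the interval here was longer, chr11:78072404-78073124, and ran over Mir144 itself.

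The site 3.15 kb upstream, chr11:78069650-78070167, had an enrichment of 3.33 in replicate 1 and 3.51 in replicate 2 (3.42 ± 0.127, SD, n = 2). It too was low in both lists by enrichment, at the 1.59 and 2.43 percentiles, and nearer the middle by significance, at the 38.0 and 45.5 percentiles. Of the windows of the 6 sites, that of replicate 2 here held the most GATA matches. Its window held 2 GATA matches in replicate 1 and 3 in replicate 2, whose window reached a further TGATAA, and 1 CACC match in each. It also held 2 and 3 matches to CTG followed by 7 to 9 bases of any kind and GATA, the spacing of a joint Tal1 and GATA1 site, and some of these overlapped the GATA matches. At least 2 GATA matches were found in 7.94% of all summit windows of replicate 1 and 7.83% of those of replicate 2. The CTG with GATA pattern was in 10.7% and 10.6%.

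The site 6.91 kb upstream, chr11:78065789-78066589, had an enrichment of 5.61 in replicate 1 and 5.66 in replicate 2 (5.63 ± 0.0346, SD, n = 2). It stood above both nearer sites, at the 20.4 and 21.9 percentiles by enrichment and the 69.7 and 70.7 percentiles by significance. Its window held 2 GATA matches in both replicates, and both lay close to the summits. The middle of TGATAA lay 5 bp before the summit of replicate 1 and 1 bp before that of replicate 2. The middle of AGATAG, read on the minus strand, lay 11 and 15 bp after these summits. It also held 2 CACC matches. A GATA match was found in 27% of all summit windows of either replicate, and a CACC match in 48.5% and 47.9%.

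The farthest shared site, 12.4 kb upstream at chr11:78060229-78060834, overlapped the 3′ end of Flot2, with its summit past the gene. Its enrichment was 8.23 in replicate 1 and 9.95 in replicate 2 (9.09 ± 1.22, SD, n = 2), the widest spread between replicates of the 6 sites. It was above the median of both lists, at the 54.8 and 72.9 percentiles. Its window held 1 CACC match and no GATA match.

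Downstream, the nearer site began 396 bp past Mir451a, at chr11:78073638-78074763, inside Eral1, with its strongest summit in an exon of that gene, 1.13 kb past the 5′ end of Mir144. Its enrichment was 3.88 in replicate 1 and 3.68 in replicate 2 (3.78 ± 0.143, SD, n = 2), at the 4.26 and 3.31 percentiles. It was the widest of the 6, 1120 bp and 1075 bp, with 3 summits in each replicate. The other, chr11:78079947-78080936, lay at the start of Eral1, its summit 18 bp from that start and 7.40 kb past the 5′ end of Mir144. It was the strongest of the 6 by enrichment, 11.7 in replicate 1 and 11.6 in replicate 2 (11.6 ± 0.0647, SD, n = 2), at the 85.7 and 85.0 percentiles. Neither window held a GATA or CACC match. No window of the 6 sites held the letters searched for ETS factors (GGAAGT or else GAGGAA), NFE2 (TGAGTCA) or RUNX factors (TGTGGT or else TGCGGT), which were in 24.5%, 5.03% and 13.6% of all windows of replicate 1 and in 24.6%, 5.15% and 13.7% of those of replicate 2. A match describes letters in the window and does not show that a factor was bound.

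**Figure D2:**
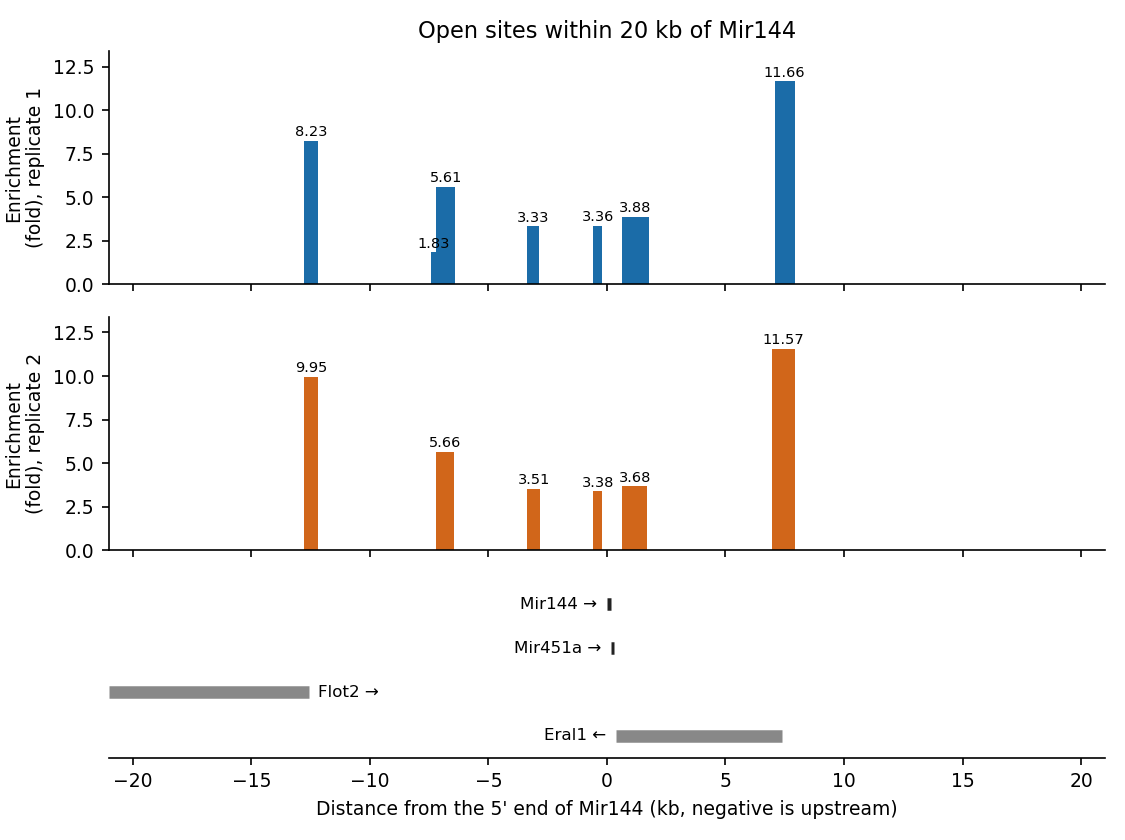
Thresholded intervals within 20 kb of Mir144 in replicate 1 (top) and replicate 2 (middle), drawn to width against distance from the 5′ end of Mir144 in kb, with bar height and label the enrichment of the strongest summit; genes are drawn beneath, with arrows for their strand. The 6 shared sites stand at the same places in both replicates, from 3.33 to 11.66 in replicate 1 and 3.38 to 11.57 in replicate 2, and the narrow bar of 1.83 is in replicate 1 alone.

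The 3 shared sites closest to the pair thus had an enrichment below 4 in both replicates. Among the erythroblast markers, similar values were found at the promoters of the globin gene Hba-a1 (3.28 and 3.37, 3.33 ± 0.0616, SD, n = 2) and of the anion exchanger gene Slc4a1 (3.43 and 3.62, 3.52 ± 0.138, SD, n = 2). The promoter of Gata1 itself had 4.63 and 5.19 (4.91 ± 0.393, SD, n = 2) and that of Klf1 5.88 and 5.85 (5.87 ± 0.0188, SD, n = 2). Epb42, a membrane skeleton gene, had the highest value of that marker list, 9.48 and 9.62 (9.55 ± 0.0984, SD, n = 2). All are values of the peak caller and do not measure transcription.

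**Figure D3:**
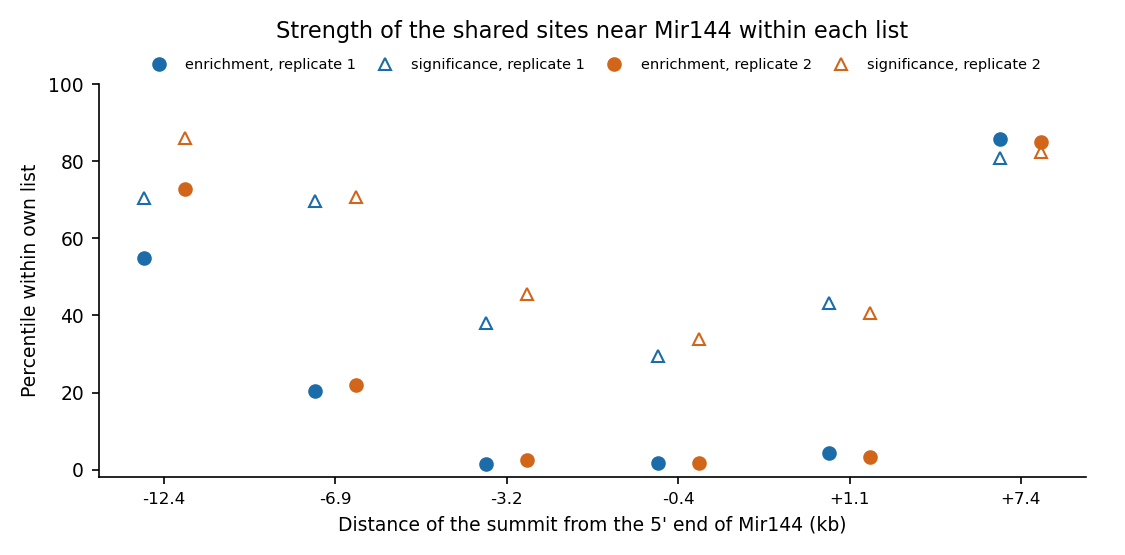
Percentile within its own thresholded list (vertical axis) of each shared site near Mir144 (horizontal axis, distance of the summit in kb, minus for upstream), by enrichment (filled circles) and by significance (open triangles), replicate 1 in blue and replicate 2 in orange. The sites at -3.2, -0.4 and +1.1 kb of Mir144 lie below 5 by enrichment and between 29.5 and 45.5 by significance in both replicates.

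In the replicated list, 7 intervals lay within 20 kb of Mir144. Of these, 6 covered the shared sites, and the other, 19.7 kb upstream inside Flot2, had an enrichment of 2.33 and was in no list of either replicate. Within 50 kb there were 9 shared sites, the 3 added ones all at promoters, of Dhrs13 40.8 kb upstream and of Fam222b 21.6 kb and 42.5 kb downstream.

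The number of distal sites around Mir144 and Mir451a was matched by few miRNA genes. At least 5 were found near 8 of the 2202, which is 0.363%, and 1804 had 0. The 8 include Mir144, Mir451a and Mir451b, which share the same sites. When miRNA genes within 10 kb of each other were joined, 1 of 1802 loci had more than this pair and 4, the pair included, had 5. The 5 loci with most were Mir3069 with 7, and Gm44390, Mir142, Mir6953 and the Mir144 locus with 5 each. The summed mean enrichment of the distal sites was 25.3 at Mir144, against 35.3, 36.4, 26.6 and 26 at the other 4. Mir142, known from all blood lineages, is the only one of these 4 in the list of blood miRNA genes used here. Sites of any enrichment were counted. With only intervals at or above the median enrichment of their list, 2 shared sites remained near Mir144, including that at the start of Eral1. The counts over all miRNA genes were not repeated with that limit.

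**Figure D4:**
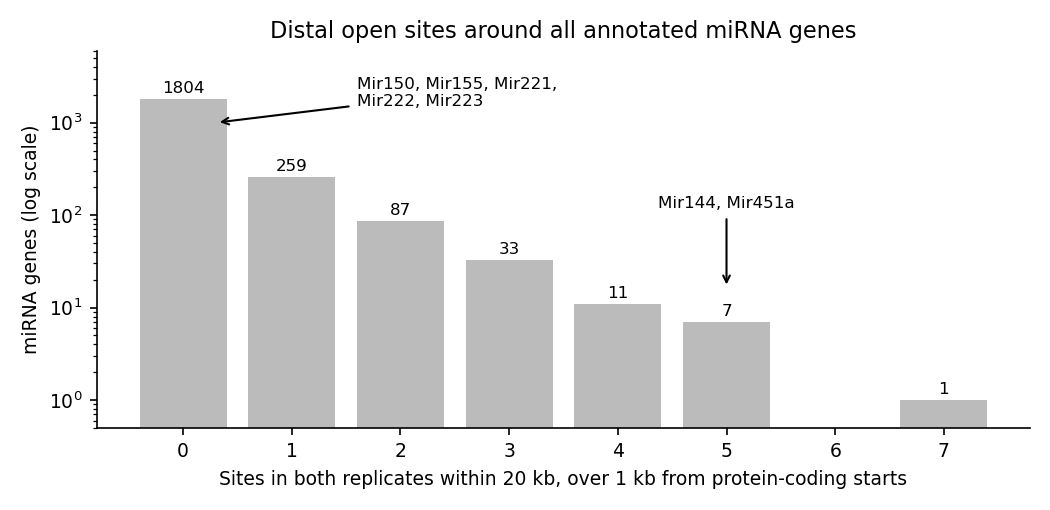
Number of miRNA genes (vertical axis, log scale) by the number of distal shared sites within 20 kb (horizontal axis), over all 2202 annotated miRNA genes, with the 7 members marked. The bars hold 1804 genes with 0 sites, 259 with 1, 87 with 2, 33 with 3, 11 with 4, 7 with 5 and 1 with 7; Mir144 and Mir451a are among the 7 and the other members among the 1804.

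Mir150 (ENSMUSG00000065495.1) is 65 bp long at chr7:45121757-45121821 on the plus strand, between genes. All 3 of its shared sites were downstream and within 1 kb of a protein-coding start, and 2 of them are described here. Rpl13a, a protein of the large ribosomal subunit, had one at its start, 7.06 kb past the 5′ end of Mir150 (7.45 and 7.90, 7.67 ± 0.318, SD, n = 2). The other lay at 14.7 kb, at the start of Flt3l, the ligand of a progenitor receptor (8.04 and 6.60, 7.32 ± 1.02, SD, n = 2). Their percentiles by enrichment ran from 34.7 to 52.7, near or below the middle of the lists, so both stood between the weak and the strong sites of Mir144. Both genes are read from the opposite strand to Mir150.

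No thresholded interval lay upstream of Mir150 within 20 kb. The less strict list of replicate 2 alone had 2 further intervals, 11.1 kb upstream (3.8) and 13.1 kb downstream (3.69). Neither was in the less strict list of replicate 1. The replicated list held 6 intervals near Mir150, of which 3 covered the shared sites, 2 covered these weaker places and the last, 14.0 kb downstream, had an enrichment of 2.07 and was in no list of either replicate. Within 50 kb there were 6 shared sites, of which 2 were distal, at 41.7 kb upstream and 40.6 kb downstream.

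The Rpl13a window held 2 ETS matches in both replicates, overlapping each other, where the Mir144 windows held none. The Rpl13a window also held 1 match to the CTG with GATA pattern in replicate 1 and 0 in replicate 2. Neither this window nor that of Flt3l held a GATA match, as was so of 4 of the 6 Mir144 sites. Each held 1 CACC match in both replicates, like the Mir144 sites 12.4 kb and 0.4 kb upstream.

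Mir223 (ENSMUSG00000076066.1), 110 bp at chrX:96242817-96242926 on the plus strand, lies inside F630028O10Rik, a noncoding transcript that starts 2.89 kb upstream. Neither replicate had an interval within 1 kb of that start, even in the list ranked by IDR without a threshold. The nearest protein-coding start, of the macrophage receptor gene Vsig4, is 50.6 kb away. The nearest shared site was at the promoter of Msn, a membrane linker gene, at a gap of 146.0 kb upstream, with an enrichment of 7.16 in replicate 1 and 8.32 in replicate 2 (7.74 ± 0.819, SD, n = 2).

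Mir155 (ENSMUSG00000065397.1), 65 bp at chr16:84714140-84714204 on the plus strand, lies inside its host transcript Mir155hg, which starts 10.97 kb upstream. No interval of the ranked lists lay within 1 kb of that start. A shared site stood just outside the window, at a gap of 20.6 kb, at the start of the mitochondrial ribosomal gene Mrpl39 (12.1 in replicate 1 and 12.5 in replicate 2, 12.3 ± 0.235, SD, n = 2). This was the strongest of the sites nearest to each member.

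Mir221 (ENSMUSG00000065422.1), 95 bp at chrX:19146294-19146388, and Mir222 (ENSMUSG00000065471.1), 79 bp at chrX:19146893-19146971, are on the minus strand, with Mir222 first. The noncoding transcript Gm14636 starts 20.3 kb upstream of Mir222, with no ranked interval within 1 kb of its start. The nearest ranked interval in each replicate was 72.8 kb from Mir222, with enrichments of 5.01 and 3.42, but its −log10 IDR was 0.470 and 0.464, where the lowest in the thresholded lists was 1.30 in both replicates. The nearest shared site was at a gap of 90.1 kb upstream, far from any protein-coding start (8.37 in replicate 1 and 6.92 in replicate 2, 7.65 ± 1.02, SD, n = 2). As the depth is unknown, an empty window shows that no interval was called, not that the DNA was closed.

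Of 24 other blood miRNA genes matched in the annotation, 18 (75%) had a shared site within 20 kb and 16 had a distal one, where 33.7% and 18.1% of all miRNA genes did. The lists were picked by hand, and no test was made. Those without were Mir181a-1, Mir181a-2, Mir30c-1, Mir29a, Mir26a-1 and Mir146. The highest mean enrichment at their sites was at Mir125a (13.5), then Mir191 and Mir425 (12.6, the same sites) and Mir130a (11.2). Of 21 miRNA genes known from muscle, brain, pancreas and epithelia, 3 (14.3%) had a shared site, Mir124a-3, Mir182 and Mir9-3. The members, at 3 of 7, were near the share of all miRNA genes. Several genes of each list share a locus and so share sites. Mir126 of the blood list is annotated as Mir126a and Mir126b, so it was not matched or counted. Neither of these had a shared site within 20 kb.

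The genes that make and carry miRNAs had open promoters in both replicates in 14 of 17 cases, against 40.6% of all protein-coding genes. Drosha, the nuclear enzyme, had an enrichment of 12.4 and 12.3 (12.4 ± 0.0861, SD, n = 2). Prkra, a partner of Dicer1, had 13.9 and 14.5 (14.2 ± 0.390, SD, n = 2). The Argonaute gene Ago3 had 13.0 and 14.0 (13.5 ± 0.707, SD, n = 2), and Tnrc6c, a silencing partner of Argonaute, 12.3 and 12.9 (12.6 ± 0.443, SD, n = 2). These were the 4 highest. Ago2, which cuts the Mir451a hairpin, was open at 7.004 and 6.97 (6.99 ± 0.0259, SD, n = 2), below the median of both lists. Ago4, Lin28a and Lin28b were not open, in the less strict lists either. Lin28a and Lin28b block maturation of let-7 miRNAs.

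Of 11 genes known as targets of the members, 6 had open promoters, a share near the 40.6% of all protein-coding genes. The miR-451a targets Cab39, a partner of the kinase Lkb1 (10.02 and 8.80, 9.41 ± 0.861, SD, n = 2), and Ywhaz, an adaptor protein (7.45 and 8.15, 7.80 ± 0.495, SD, n = 2), were open, as was the miR-144 target Nfe2l2, a regulator of the oxidative stress response (6.65 and 7.24, 6.94 ± 0.416, SD, n = 2). Cdkn1b, a cell cycle inhibitor targeted by miR-221 and miR-222, was open at 6.99 and 7.35 (7.17 ± 0.250, SD, n = 2). The other open ones were Lmo2, a partner of Tal1, and Bach1, a heme-sensing repressor. Myb, Spi1, Inpp5d, Kit and Mef2c were not open by this rule, and of these Myb and Inpp5d had a site in both less strict lists. Kit, the target of miR-221 and miR-222, and the locus of those miRNAs both lacked a thresholded site in the windows examined.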

How the data were processed

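ATAC-seq peak lists of 2 replicates of 1 group of erythroblasts were used, in mm10 coordinates per the labels, printed counting from 1. For the aligner, the peak caller and settings, details were not given in the sources used here. Enrichment, as deposited, is a fold over background by the authors' peak caller. Significance, as deposited, is the −log10 p of a summit, and the deposited ranked lists also give the −log10 of the IDR. Neither is stated to be comparable between lists, so both only describe or rank peaks within a list. The mean and SD over 2 replicates describe values of separate lists.

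Intervals with more than 1 summit fill as many lines of the files. Distinct intervals were used, each placed by the summit of highest enrichment. Windows of 20 kb ran from the edge of the gene to the edge of the interval, and upstream follows the strand of the miRNA gene. A promoter was open when each replicate had a thresholded interval within 1 kb of a protein-coding start of the gene. A percentile is an interval's rank in its own list as a share of all intervals there, with tied values at their mean rank. Motifs were exact letters on either strand, up to 75 bp from a summit. Gene models were GENCODE M21 and sequences RefSeq GRCm38.p6, where 12 of 12 mature sequences equalled the genome at their coordinates. Mature sequences matched for 7 of 7 members and hairpins for 6. The hairpin of Mir150 and miR-150-5p are named only. Mir126, Mir486a and Mir486b of the blood list did not match a symbol.

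Named items were all members, every thresholded site near them but 1 near Mir150 that is not reported here, the 5 miRNA loci with most distal sites, and of each other list the 4 members of highest mean enrichment and those not open. Other names in those lists, such as Ago2, Gata1, Klf1, Hba-a1, Slc4a1, Epb42 and the targets, were picked with their values in view. The members and lists were chosen with earlier results of these data known. Alternatives were windows of 10 and 50 kb, the less strict lists, intervals at or above the median enrichment, an overlap of 50%, distance to the summit, a distal limit of 2.5 kb, joined loci, the other lists made from both replicates, and each replicate alone. Scripts ran in Python 3.11.15 with pandas 2.3.3 and were tested on simulated intervals.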

Additional observations from a re-analysis of the deposited data

How the results depend on the processing

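Of 89 alternative values, 82 kept the count within 1.5 times its main value and 7 moved further. Many of the 82 belong to members with a main count of 0, which a stricter setting cannot lower. The values of Mir451a repeat those of Mir144. The total therefore says little about how stable the other counts were. With only intervals at or above the median enrichment of their list, Mir144 and Mir451a went from 6 shared sites to 2 and Mir150 from 3 to 0, so that 2 of the 7 members had any. With a window of 50 kb, Mir150 went from 3 to 6 and Mir155 from 0 to 1. In the series-level lists, Mir150 had 6 intervals in the replicated list and 3 in both the IDR-thresholded and the conservative list. With either replicate alone, 3 members had a site, Mir144 and Mir451a had 6 to 7 and Mir150 had 3. The share of all miRNA genes with a shared site ran from 24.4% within 10 kb to 46.8% within 50 kb. By locus it was 36.9% of 1847 loci, a different joining from the 1802 loci ranked by distal sites. No paired analysis was possible because there was 1 group. Unknown depth limits what an empty window can show, and the 2 replicates carry 1 donor identifier.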
